A study of Mus musculus with 24 samples.

Results

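The chemokine genes Cxcl1, Cxcl2, Cxcl3, Cxcl5, Ppbp and Pf4 were followed through skin wounding at 3 body sites. They were taken by symbol from a table of 18368 genes, and all 6 were found, each in 1 row with a value in every one of the 24 libraries. RNA was sequenced from CD-1 mice, an outbred stock, aged 7 weeks at wounding, with the hair cycle brought together in its resting phase (telogen). Every mouse received 2 mm punch wounds at a single site, 1 on the cheek or 2 on the abdomen or back, and on day 3 a wound and a piece of uninjured skin next to it were collected with a 2 mm punch. The 12 mice, 4 for each site, thus gave 12 wound and 12 unwounded libraries, and all animals were wounded, including those that supplied the unwounded skin. The groups were unwounded abdomen, back and cheek skin and wounds of the abdomen, back and cheek, with 4 libraries in each. The punches hold all layers of the skin and every cell type within them, so in these bulk samples a change in the number of cells of a type and a change in RNA per cell cannot be told apart.

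Chemokines of the CXC class that carry a glutamate-leucine-arginine (ELR) motif before their first cysteines draw neutrophils out of the blood through the receptor CXCR2. Cxcl1, Cxcl2, Cxcl3 and Cxcl5 encode such ligands, which epithelial cells, fibroblasts, endothelial cells and myeloid cells make when stimulated by interleukin-1, tumour necrosis factor or bacterial products. Ppbp encodes the precursor of the ELR+ chemokine CXCL7, stored in platelet granules, and Pf4 encodes platelet factor 4 (CXCL4), a granule protein without the ELR motif that does not act as a classical CXCR2 ligand. Their mRNAs, apart from those of the platelet genes, are known for fast induction through NF-κB and for fast decay directed by AU-rich elements in their 3′ untranslated regions (UTRs).

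Values are FPKM, fragments scaled to the length of the transcript and to the mapped fragments of the library, so genes can be compared within a library. FPKM summed to between 490830 and 608888 per library, with 15781 to 16577 genes above 0. Depth is unknown from FPKM. The steps between low values of 57 genes gave relative depths of 0.953 to 1.05. Only genes whose steps were alike across libraries were kept for this, so it cannot show that depths were equal. Keratin genes of the epidermis marked every library as skin (7 markers, summed FPKM 5393 or more). Muscle in the punches varied: 6 skeletal muscle markers summed to between 471 and 21491 FPKM in unwounded skin and between 1620 and 6268 FPKM in wounds.

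The 6 genes lie within 147 kb of chromosome 5, all on the plus strand (GRCm38, chr5:90759298-90905938). Their order is Cxcl5, Ppbp, Pf4, Cxcl3, Cxcl1 and Cxcl2, with gaps of 6.89, 2.37, 12.7, 103 and 10.8 kb between neighbours. The span holds 7 genes in RefSeq, and the only one outside the set was Cxcl15, a CXC chemokine gene, which was listed at 0 in 22 of 24 libraries and reached 0.03 FPKM in 2 wounds. Cxcl1, Cxcl2, Cxcl3 and Cxcl5 have 4 exons each, and Ppbp and Pf4 have 3. The coding sequences of Cxcl2 and Cxcl3 were 89.7% identical, against 75.7% for Cxcl1 and Cxcl2, 72.7% for Cxcl1 and Cxcl3 and 47.3% to 56.7% for every pair that included Cxcl5, Ppbp or Pf4. The Cxcl2 and Cxcl3 transcripts shared 80 words of 31 bases, which is 7.41% of those of Cxcl2 and 8.11% of those of Cxcl3, and 11 words as long as a whole read of 100 bases. Reads from those stretches fit both genes, so their separate values carry some uncertainty, whereas no other pair shared a word of 31 bases.

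The promoters are shown because Cxcl1, Cxcl2 and Cxcl3, the members most alike in sequence, also followed each other most closely across the wounds. The 100 bases before the transcription start (RefSeq, GRCm38, plus strand) are given 5′ to 3′, with capitals for the κB word GGGAATTTCCC and for TATAAA, the core of the TATA box. Cxcl1 is chr5:90891145-90891244, Cxcl2 is chr5:90903799-90903898, Cxcl3 is chr5:90786001-90786100, Ppbp is chr5:90768418-90768517 and Pf4 is chr5:90772335-90772434.
Cxcl1: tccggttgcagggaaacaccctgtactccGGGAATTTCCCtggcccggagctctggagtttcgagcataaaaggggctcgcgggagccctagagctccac
Cxcl2: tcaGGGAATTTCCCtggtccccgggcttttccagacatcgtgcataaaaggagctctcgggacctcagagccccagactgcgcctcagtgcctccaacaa
Cxcl3: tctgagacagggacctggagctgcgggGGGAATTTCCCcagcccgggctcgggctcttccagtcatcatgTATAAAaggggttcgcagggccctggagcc
Ppbp: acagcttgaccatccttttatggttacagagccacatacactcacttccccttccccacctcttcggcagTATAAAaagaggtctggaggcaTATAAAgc
Pf4: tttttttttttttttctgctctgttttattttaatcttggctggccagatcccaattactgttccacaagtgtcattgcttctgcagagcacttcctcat

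Cxcl1, Cxcl2 and Cxcl3 shared the word gggaatttccc, which began 71, 97 and 73 bases before their starts and occurred in 14 of 32851 mouse promoters of the same length (250 bases before to 50 after the start). It matches the κB motif on both strands, 1 base apart. The κB motif, searched on both strands, was present in 8.46% of all promoters. Ppbp and Pf4 held no match to the κB motif in this window. TATAAA stood 30 bases before the start in Cxcl3 and 30 and 8 bases before it in Ppbp, and was present in 13.6% of promoters. TGANTCA, the motif bound by AP-1, was found in Ppbp alone, 204 bases before the start on both strands of the same letters, and in 7.81% of promoters. Cxcl5 had no entry in the promoter table. A match describes the letters and is not evidence of binding.

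The 3′ UTRs are shown because several members were dense in the word ATTTA, the core of AU-rich decay elements. The stretch of 30 bases with the most ATTTA words (capitals) is given for 4 members, from the GENCODE transcripts of GRCm38.
Cxcl1: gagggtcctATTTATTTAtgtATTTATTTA
Cxcl2: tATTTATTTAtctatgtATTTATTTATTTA
Cxcl3: caagatggcatcttATTTAatgtttATTTA
Ppbp: cgggcaagccaagttgcaacctgcaATTTA

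Cxcl2 held 11 ATTTA words in a 3′ UTR of 734 bases (15 per kb), Cxcl1 held 7 in 592 bases (11.8 per kb) and Cxcl3 held 5 in 645 bases (7.75 per kb). Cxcl5 held 5 in 1111 bases (4.5 per kb) and Ppbp 1 in 656 bases (1.52 per kb). The single word of Pf4 lies in a UTR of only 123 bases, which gives 8.13 per kb. The median over 19138 genes was 1.3 per kb. A density at least as high as that of Cxcl2 was found in 0.266% of genes, and one at least as high as that of Cxcl1 in 0.543%. The longer decay word TTATTTATT was present 4 times in Cxcl2, 2 times in Cxcl1, 1 time in Cxcl3 and in none of the other members, and in 7.44% of all genes.

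Cxcl2, the most abundant of the ELR+ genes in wounds, was nearly undetected in unwounded skin. In the 4 unwounded libraries (mouse 1 to mouse 4) it was listed at 0, 0.06, 0 and 0 FPKM in abdomen, at 0, 0, 0.06 and 0 FPKM in back and at 0.12, 0, 0.06 and 0.35 FPKM in cheek skin. In the wounds it reached 178.7, 58.52, 145.54 and 72.53 FPKM in abdomen, 313.73, 222.02, 237.26 and 259.13 FPKM in back and 242.07, 246.32, 369.8 and 134.74 FPKM in cheek. No wound overlapped with unwounded skin, and abdomen mice 2 and 4 were the lowest of the 12 wounds.

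Cxcl3, the closest relative of Cxcl2, behaved alike at a lower level. It was listed at 0 in 9 of the 12 unwounded libraries, with 0.32 FPKM in abdomen mouse 1 and 0.12 and 0.06 FPKM in cheek mice 3 and 4. Its wound values were 30.37, 10.85, 24.02 and 11.4 FPKM in abdomen, 34.33, 29.35, 31.86 and 28.49 FPKM in back and 43.24, 33.93, 67.96 and 22.54 FPKM in cheek. Back wounds were the most uniform (31 ± 2.6 FPKM, SD, n = 4), and the wounds of abdomen mice 2 and 4 were again the lowest.

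Cxcl1, a keratinocyte and fibroblast product best known as KC, was low but measurable before injury. Unwounded values were 0.74, 1.12, 0.42 and 0.47 FPKM in abdomen, 0, 0.14, 0.46 and 0.44 FPKM in back and 0.27, 0.27, 0.27 and 0.47 FPKM in cheek. Wound values were 16.73, 5.31, 12.24 and 5.96 FPKM in abdomen, 22.9, 17.21, 28.94 and 13.24 FPKM in back and 16.89, 18.11, 32.4 and 12.02 FPKM in cheek. No wound overlapped with unwounded skin, and abdomen had both the highest unwounded mean and the lowest wound mean.

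Cxcl5, known from epithelial cells, varied most between wounds. It did not exceed 0.04 FPKM in unwounded skin, where 9 of 12 libraries were at 0. Wounds held 18.66, 5.65, 4.25 and 2.05 FPKM in abdomen, 29.12, 24.94, 39.44 and 17.41 FPKM in back and 8.78, 14.99, 43.03 and 32.01 FPKM in cheek. The highest wound was 21 times the lowest, against 6.1 to 6.32 times for Cxcl1, Cxcl2 and Cxcl3. Cheek mouse 4, the lowest cheek wound for those 3 genes, was the second highest of the 4 for Cxcl5.

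Ppbp, one of the platelet genes, stayed low. Unwounded skin held 0.12, 0.97, 0.24 and 0.12 FPKM in abdomen, 0.23, 0.84, 0.06 and 1.02 FPKM in back and 0.41, 0.7, 0.17 and 0.46 FPKM in cheek. Wounds held 2.17, 1.35, 0.74 and 0.73 FPKM in abdomen, 3.61, 2.69, 1.51 and 2.93 FPKM in back and 2.72, 8.15, 7.11 and 1.79 FPKM in cheek. In abdomen the wounds of mice 3 and 4 lay below the unwounded library of mouse 2, so these groups overlapped, while those of back and cheek did not.

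Pf4, the other platelet gene, was the only member with a high level before injury. Unwounded skin held 92.58, 78.44, 86.84 and 49.38 FPKM in abdomen, 65, 91.91, 78.46 and 70.03 FPKM in back and 106.79, 93.08, 77.92 and 46.83 FPKM in cheek. Wounds held 133.35, 118.69, 144.33 and 111.8 FPKM in abdomen, 177.1, 205.58, 172.11 and 268.6 FPKM in back and 167.61, 187.46, 194.17 and 131.96 FPKM in cheek. Wound and unwounded libraries did not overlap, but the ratio of the means was only 1.65 (abdomen), 2.7 (back) and 2.1 (cheek).

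**Figure D1:**
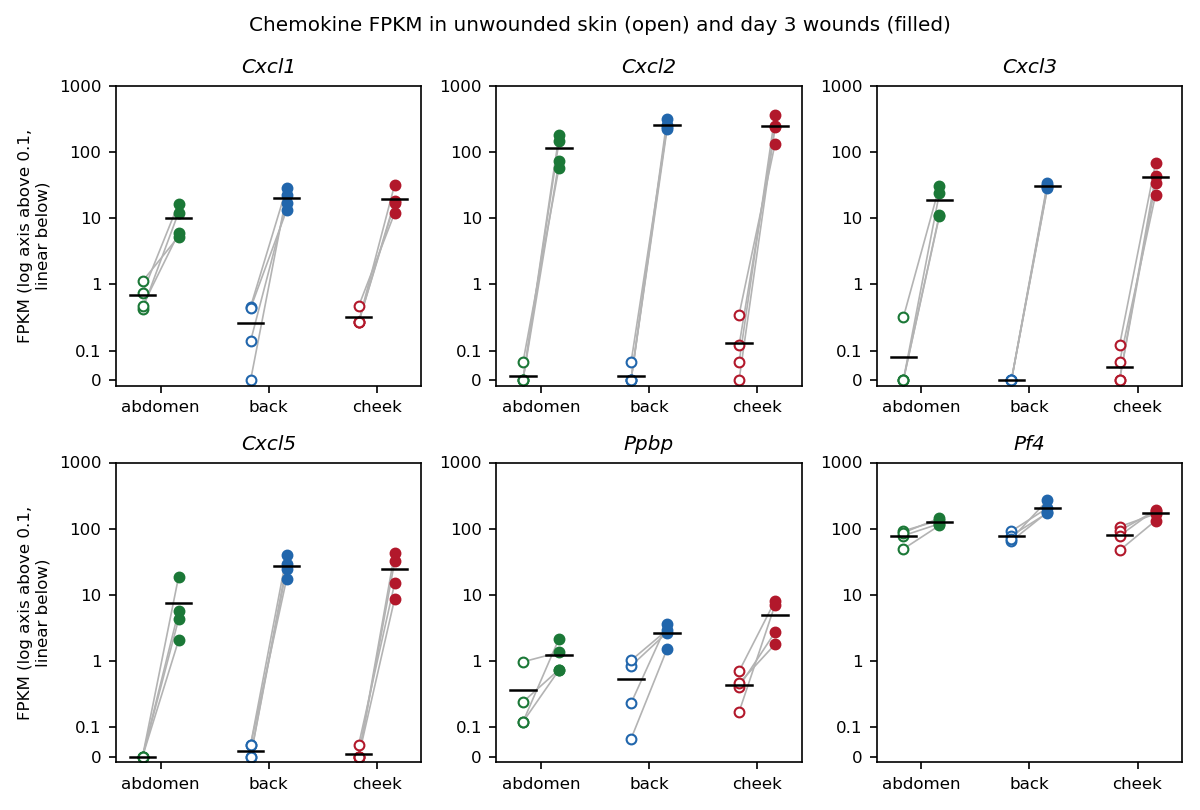
FPKM of the 6 genes in unwounded skin (open) and day 3 wounds (filled) of abdomen, back and cheek; grey lines join both libraries of a mouse and black bars are means of 4 mice. The y axis is logarithmic above 0.1 FPKM and linear below. Cxcl1, Cxcl2, Cxcl3 and Cxcl5 start near 0, whereas Pf4 starts between 46.83 and 106.79 FPKM and never exceeds 268.6 FPKM.

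To ask which of the genes responded to wounding at each site, wound and unwounded libraries of the same mouse were compared with limma on log2(FPKM + 0.5), where a gene was called at an adjusted p below 0.001. At all 3 sites, Cxcl1, Cxcl2, Cxcl3 and Cxcl5 rose. In abdomen 4 of 6 members were called higher, against 3.92% of the 14423 genes tested, in back 5 of 6 against 10.0%, and in cheek 6 of 6 against 6.50%. No member was lower in a wound of any mouse. In each gene all 12 mice changed upward (exact sign-change test, two-sided p = 0.000488, the smallest that 12 mice allow), while the 4 mice of 1 site cannot give an exact p below 0.125. Over the mean of the 3 sites, 6 of 6 members were called higher, against 19.1% of the genes tested.

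The rise on the log2(FPKM + 0.5) scale was largest for Cxcl2, at 7.65 (abdomen), 8.96 (back) and 8.56 (cheek), with SE 0.325 (limma adjusted p = 2.4e-07, 8.3e-08 and 6.2e-08). It ranked 3, 2 and 2 among the 14423 genes. Cxcl3 rose by 4.98, 5.97 and 6.18 (SE 0.212; limma adjusted p = 9.4e-08, 9.6e-09 and 6.3e-09). Because both genes were at or near 0 in unwounded skin, the size of these values depends on the added 0.5 FPKM: over the other settings the rise of Cxcl2 in back lay between 7.98 and 11.15.

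Cxcl1 rose by 3.04 at the abdomen, 4.79 on the back and 4.55 on the cheek (SE 0.354; limma adjusted p = 0.00013, 2.1e-06 and 3.8e-06). Cxcl5 rose by 3.62, 5.70 and 5.38 (SE 0.436; limma adjusted p = 0.00017, 3.2e-06 and 6.1e-06). The abdomen calls of Cxcl1 and Cxcl5 were lost without abdomen mouse 3 (limma adjusted p = 0.0012 for each) and when abdomen was fitted on its own 8 libraries (0.0066 and 0.0089). The call of Cxcl1 was also lost without abdomen mouse 1 (limma adjusted p = 0.0012).

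The platelet genes changed less. The difference for Ppbp was 1.04 at the abdomen, 1.69 on the back and 2.36 on the cheek (SE 0.36; limma adjusted p = 0.043, 0.0026 and 0.00043), so that only cheek passed the threshold of 0.001. That for Pf4 was 0.76, 1.41 and 1.11 (SE 0.155; limma adjusted p = 0.0033, 2.1e-05 and 0.00018), and abdomen did not pass. The cheek calls were sensitive to single mice: without cheek mouse 1, 2 or 3 for Ppbp, and without cheek mouse 2, 3 or 4 for Pf4, they were lost (largest limma adjusted p = 0.004 and 0.0017). With cheek fitted on its own 8 libraries both were lost as well (limma adjusted p = 0.0064 for Ppbp and 0.0038 for Pf4), and with a pseudocount of 0.1 FPKM that of Ppbp was (0.0011). With back fitted on its own 8 libraries Ppbp passed there (limma adjusted p = 0.00028), so which site passed for Ppbp depended on the fit. The median wound effect of all genes tested lay between -0.02 and 0.07 at the 3 sites.

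**Figure D2:**
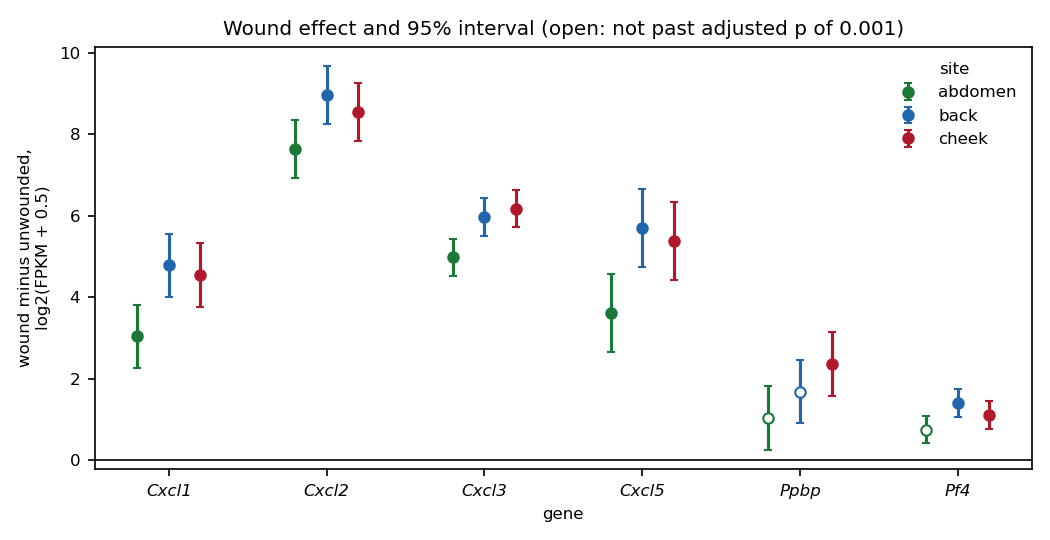
Difference between wound and unwounded skin of the same mice, on the log2(FPKM + 0.5) scale, for each gene (x axis) and site (colour), with 95% intervals from limma over 24 libraries; filled points passed an adjusted p of 0.001. The 4 neutrophil chemokines lie above 3 at every site, and Ppbp and Pf4 lie below 2.4.

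Whether the response itself differed between sites was tested with an F test on the 3 wound effects in limma. None of the 6 members passed an adjusted p of 0.05 (adjusted p between 0.23 and 0.41), against 0.0208% of the genes tested, although 5 of the 6 had an unadjusted p below 0.05 (0.0035 for Cxcl3 to 0.041 for Cxcl2, with Ppbp at 0.07), as had 12.9% of all genes. In the pairwise differences of wound effects, 0 of 6 were called for any pair of sites, against 0%, 0.00693% and 0.0277% of genes for back against abdomen, cheek against abdomen and cheek against back. The point estimates were larger in back and cheek than in abdomen for every member. For Cxcl5 the rise in back exceeded that in abdomen by 2.09 (95% interval 0.73 to 3.44; limma adjusted p = 0.18) and for Cxcl1 by 1.75 (0.65 to 2.84; limma adjusted p = 0.17). Leaving out abdomen mouse 1, the abdomen wound with most Cxcl5, brought Cxcl5 under the threshold. The limma adjusted p for Cxcl5 was then 0.045 in the F test and 0.025 for back against abdomen. Calls over all genes moved too: fits that each left out a mouse called 1 to 315 genes in the F test. For back against abdomen such fits called 0 to 597 genes. Cheek and back could not be separated: the intervals of cheek minus back were -1.33 to 0.86 for Cxcl1, -1.41 to 0.61 for Cxcl2, -0.45 to 0.85 for Cxcl3 and -1.68 to 1.03 for Cxcl5.

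Comparing the wounds directly, abdomen had the lowest mean for all 6 genes. Cxcl2 averaged 114 ± 58 FPKM at the abdomen, 258 ± 40 FPKM on the back and 248 ± 96 FPKM on the cheek (SD, n = 4). Every back wound exceeded every abdomen wound for Cxcl2 and for Pf4 (two-sided exact permutation test, p = 0.029, which 4 against 4 cannot go below; 0.15 after adjustment over 18 comparisons). In limma these differences were 1.31 for Cxcl2 and 0.68 for Pf4 (adjusted p = 0.11 and 0.056). The share of all genes that separated back from abdomen wounds without overlap was not counted. By limma, 16.5% of all genes had an unadjusted p below 0.05 between these wounds. The comparisons of back and of cheek with abdomen share the abdomen wounds.

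By limma at an adjusted p of 0.05, 1 of 6 members differed between cheek and abdomen wounds, against 10.8% of the 14023 genes tested, and 0 of 6 differed between back and abdomen (1.27% of genes) or cheek and back (2.50%). The member called was Ppbp, at 4.94 ± 3.2 FPKM in cheek and 1.25 ± 0.68 FPKM in abdomen wounds (SD, n = 4), a difference of 1.50 on the log2(FPKM + 0.5) scale (95% interval 0.56 to 2.44; limma adjusted p = 0.047). The call held in 2 of 12 fits that each left out a mouse (adjusted p between 0.031 and 0.13) and in 5 of 9 other settings, and cheek mouse 4 (1.79 FPKM) lay below abdomen mouse 1 (2.17 FPKM). At an unadjusted p below 0.05, all 6 were higher in cheek than in abdomen (31.6% of all genes differed) and 5 of 6 higher in back than in abdomen (16.5%), whereas none differed between cheek and back (26.1%).

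In unwounded skin only Ppbp and Pf4 reached 0.5 FPKM in 4 libraries and could be tested. Neither differed between any pair of sites, against 2.67%, 2.57% and 1.05% of genes for back against abdomen, cheek against abdomen and cheek against back, and neither had an unadjusted p below 0.05. Pf4 averaged 76.8 ± 19 FPKM in abdomen skin, 76.3 ± 12 FPKM in back skin and 81.2 ± 26 FPKM in cheek skin (SD, n = 4), and the ratio of any 2 means was at most 1.06.

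Levels per length put the genes in a similar order in every wound. Cxcl2 was the highest of the 6 in 9 of 12 wounds and Pf4 in the other 3 (abdomen mice 2 and 4 and back mouse 4), and Ppbp was the lowest in all 12. Cxcl2 exceeded Cxcl3 by 5.39 to 9.14 times and Cxcl1 by 8.2 to 19.6 times. Cxcl3 exceeded Cxcl1 in 12 of 12 wounds, at 1.1 to 2.56 times, whereas Cxcl5 exceeded Cxcl1 in 8 of 12, so the places of these 2 neighbours were not fixed.

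The 5 ELR+ genes together summed to 0.23 to 2.15 FPKM in unwounded skin. In wounds the sum was 247, 81.7, 187 and 92.7 FPKM in abdomen, 404, 296, 339 and 321 FPKM in back and 314, 322, 520 and 203 FPKM in cheek, so that abdomen mice 2 and 4 lay below every back and cheek wound. Cxcl2 made up most of this pool at every site. It contributed 75.1% ± 3.5 of it at the abdomen, 75.8% ± 4.5 on the back and 72.8% ± 5.1 on the cheek (SD, n = 4). Ppbp contributed at most 2.53% in any wound.

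Cxcl3 took the smallest share in back wounds, at 8.5%, 9.91%, 9.4% and 8.87%, against 12.3% to 13.3% in abdomen and 10.6% to 13.8% in cheek. Back thus lay below both other sites without overlap (two-sided exact permutation test, p = 0.029 for each, the lowest value possible; 0.14 after adjustment over 15 comparisons). The share of Cxcl1 in cheek (5.38% to 6.23%) lay below that in abdomen (6.43% to 6.78%), with the same p-values. The share of Cxcl5 averaged 4.74% in abdomen, 8.17% in back and 7.87% in cheek wounds and spread most, from 2.21% in abdomen mouse 4 to 15.8% in cheek mouse 4. None of the 15 comparisons of shares passed after adjustment, and 3 had the lowest exact p that is possible.

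**Figure D3:**
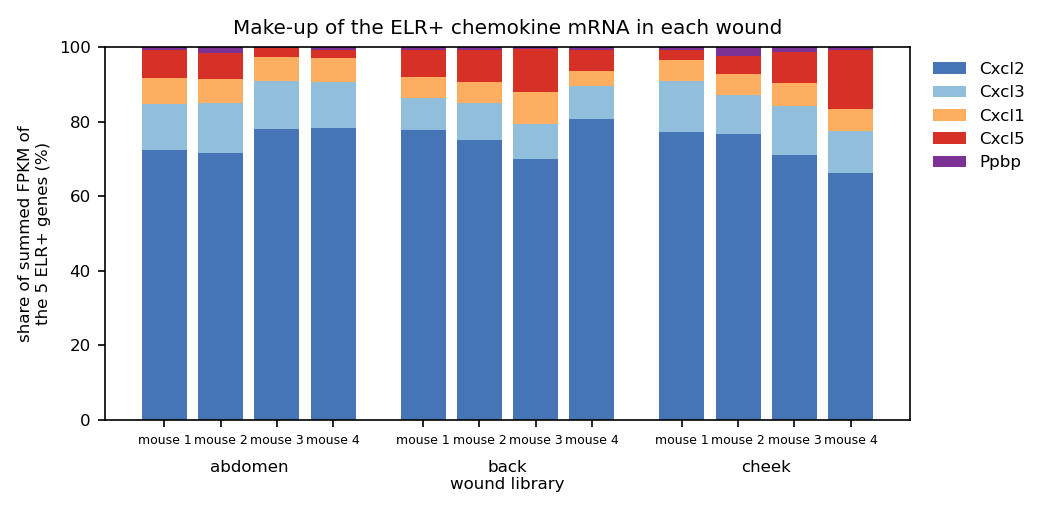
Share of each ELR+ gene in the summed FPKM of the 5 ELR+ genes (y axis, percent) in the 12 wound libraries, by site and mouse. Cxcl2 makes up 66.3% to 80.7% of every bar, and the Cxcl5 part ranges from 2.21% to 15.8%.

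Pf4 and Ppbp are known as platelet genes, so their levels were set beside 13 markers of platelets and megakaryocytes. Of these, 6 markers, including the platelet glycoprotein genes Gp6 and Gp9 and the platelet tubulin Tubb1, stayed under 0.5 FPKM in all 24 libraries, in which Pf4 never fell below 46.83 FPKM. The marker sum was 11.3 to 15 FPKM in unwounded skin and 14.2 to 17.9 FPKM in wounds. Within mice it was higher in the wound in 12 of 12, with wound to unwounded ratios of 1.09 to 1.5 (median 1.28). P2ry12, a platelet ADP receptor gene that other cells also express, was higher in the wound in 12 of 12 mice, by 0.42 over the mean of the sites (limma adjusted p = 0.0013, which did not pass). Of the 5 markers that could be tested, 0 were called higher in abdomen wounds, 1 in back and 0 in cheek. The marker called was Itgb3 (integrin β3), which other cells also express. Median differences were -0.01, 0.37 and 0.36. By site, 1, 3 and 2 of the 5 had an unadjusted p below 0.05, as had 44.3%, 53.5% and 46.4% of all genes tested. Red blood cell markers, a sign of blood in the tissue, gave 0 calls at all 3 sites by limma (of 5 tested, 0, 1 and 0 had an unadjusted p below 0.05), and their sums overlapped widely (601 to 2240 FPKM in unwounded skin, 409 to 2773 FPKM in wounds).

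Some macrophage genes rose in wounds and others did not. The 11 macrophage markers summed to 608 to 1212 FPKM in unwounded skin, and to 990 to 1372 FPKM in abdomen, 1397 to 1644 FPKM in back and 1164 to 1441 FPKM in cheek wounds, with medians in the same order of sites as for Pf4, and the sum was higher in the wound in 12 of 12 mice (ratios of 1.17 to 2.32). Of the 11, 2 rose in abdomen, 4 in back and 3 in cheek, Adgre1 (F4/80) and Cd68 at every site, with median differences of 0.33, 0.62 and 0.56, against 0.76, 1.41 and 1.11 for Pf4. Cd163, Lyve1, F13a1 and Folr2, listed for resident macrophages, were not called at any site (limma adjusted p of 0.0077 or above). They were higher in the wound in only 3, 3, 4 and 5 of 12 mice. Lyve1 and F13a1 are not limited to macrophages. Lyve1 averaged 14.6 FPKM in unwounded abdomen skin and 7.28 FPKM in its wounds. Across the 12 unwounded libraries Pearson's r of Pf4 with these markers had a median of 0.48, and across the 12 wounds of 0.37 (-0.151 to 0.651), against 0.05 and 0.02 for the 5 platelet markers (-0.589 to 0.511 in wounds, the highest being Itgb3). For Ppbp the median r with the macrophage markers was -0.122 in unwounded skin and 0.05 in wounds, and with the platelet markers -0.204 and 0.228. These are descriptions over libraries that share tissue composition, and the part of either cell type in the Pf4 and Ppbp values was not tested.

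**Figure D4:**
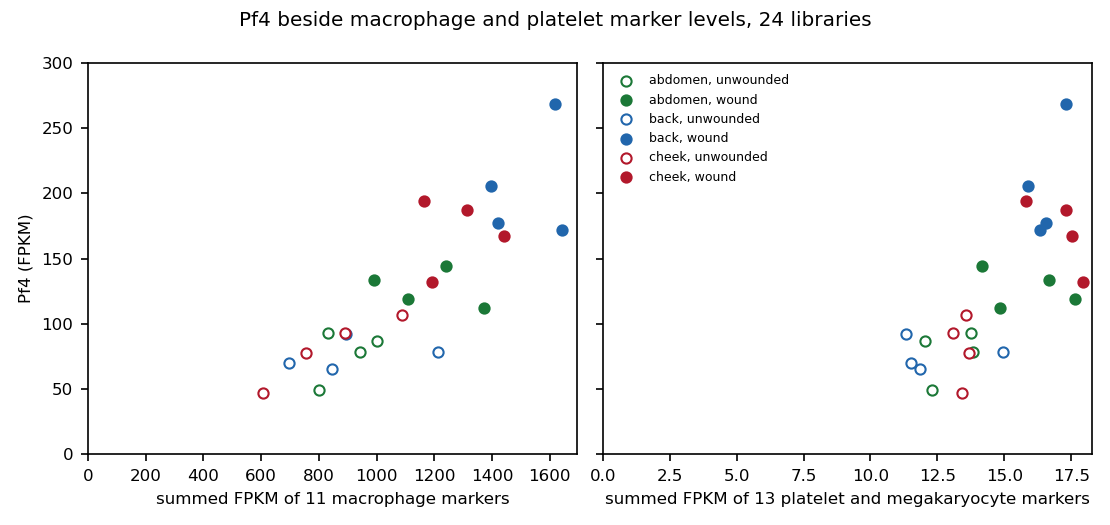
Pf4 (y axis, FPKM) against the summed FPKM of 11 macrophage markers (left) and of 13 platelet and megakaryocyte markers (right) in unwounded skin (open) and wounds (filled) of abdomen, back and cheek, 1 point per library. Pf4 spans 46.83 to 268.6 FPKM, the macrophage marker sum 608 to 1644 FPKM and the platelet marker sum 11.3 to 17.9 FPKM.

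Neutrophils carry the receptor of the ELR+ ligands, and most of their tested markers were higher in wounds. Of 13 neutrophil markers tested, 7 were called higher and 1 lower in abdomen wounds, 8 higher in back and 8 higher in cheek, with median differences of 1.53, 2.82 and 2.59. Over the mean of the sites 9 were called higher and 2 lower. The calprotectin genes S100a8 and S100a9, which keratinocytes also express in wounds, the receptor genes Csf3r, Fpr1 and Fpr2 and the protease genes Mmp8 and Mmp9 rose at every site. The 2 that fell over the mean of the sites were lower in the wound in 12 of 12 mice. Il1r2, the decoy receptor of interleukin-1, fell by 0.63 (limma adjusted p = 1.1e-05), and was the gene called lower in abdomen, where it fell by 0.99. Mpo, the myeloperoxidase of neutrophil granules, fell by 1.13 (limma adjusted p = 0.00012), from 31.6 to 16.5 FPKM in abdomen, 9.21 to 5.45 FPKM in back and 13.7 to 4.11 FPKM in cheek. Ltf and Elane, made by immature neutrophils, were too low to test. Camp, Ngp and Ly6g were low too, at no more than 3.26, 1.84 and 0.9 FPKM in any library. They were higher in the wound in 3, 9 and 12 of 12 mice. Which cells gave the Mpo values was not tested. The marker sum was highest in abdomen mouse 1 (2506 FPKM), which was not the wound with most ELR+ mRNA. It was lowest in abdomen mouse 4 (490 FPKM), so that ligand mRNA and this sum did not rank the wounds alike. S100a8 and S100a9, at up to 993.87 and 1347.86 FPKM in abdomen wounds, weigh most in the sum. Single markers ordered the sites differently. Csf3r averaged 12, 18.4 and 25.4 FPKM in wounds of abdomen, back and cheek, and Fpr2 averaged 13.3, 13.1 and 10.8 FPKM. What neutrophils themselves added to the chemokine values was not tested.

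Of 4 receptor and scavenger genes, 1 rose at each site. Cxcr2, the receptor of the ELR+ ligands, went from 0.9 to 3.31 FPKM in unwounded skin to 6.53 to 27.71 FPKM in wounds, a rise of 2.00 (abdomen), 2.69 (back) and 2.98 (cheek), with SE 0.262 (limma adjusted p = 0.00022, 1.1e-05 and 6.5e-06). Cxcr1 did not exceed 0.44 FPKM and was not tested. Ackr1, which encodes a chemokine scavenger on venules, had a median of 19.7 FPKM in unwounded skin and 15.3 FPKM in wounds and was not called (mean difference -0.39, limma adjusted p = 0.0049). Cxcr3, a receptor for other CXC chemokines, was called over the mean of the sites only, with a rise of 0.48 (limma adjusted p = 0.0001).

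Among 9 cytokine genes that can induce the ELR+ ligands, 7 were tested, and 4 rose in abdomen, 5 in back and 4 in cheek. Il1b rose most, by 5.51, 7.11 and 6.39, from a median of 1.74 FPKM to 191 FPKM. Osm (oncostatin M) rose by 3.38, 4.56 and 4.34, Csf3 (G-CSF, the growth factor of neutrophils) by 2.93, 3.94 and 3.64, and Tnf by 1.84, 3.52 and 3.49. Csf3 was listed at 0 in all 12 unwounded libraries and reached 1.2 to 10.66 FPKM in wounds. Il6 was called in back alone (1.44), and its effect was not shown to differ between sites, while Il1a and Csf2 were not called at any site and had mean differences of 0.55 and 0.44. The interleukin-17 genes Il17a and Il17f did not reach 0.5 FPKM in any library.

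Of 10 genes of NF-κB, its feedback and mRNA decay, 1 rose in abdomen, 5 in back and 3 in cheek, with median differences of 0.18, 0.59 and 0.56. Over the mean of the sites 8 of 10 rose. Zfp36, whose product tristetraprolin binds AU-rich elements such as those shown above and speeds decay, was the gene called at every site (0.90, 1.36 and 1.07), from 32.66 to 50.67 FPKM in unwounded skin to 60.3 to 108.69 FPKM in wounds. Nfkbiz, which encodes the inhibitor-like cofactor IκBζ, rose by 0.78 over the mean of the sites, Nfkb2 by 0.75 and Nfkbia, the inhibitor of NF-κB, by 0.52. Tnfaip3 (A20) rose by 0.49. None of these genes, nor of the receptors and cytokines, had a wound effect that differed between sites by the F test in limma, while 7 of the 20 tested had an unadjusted p below 0.05.

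**Figure D5:**
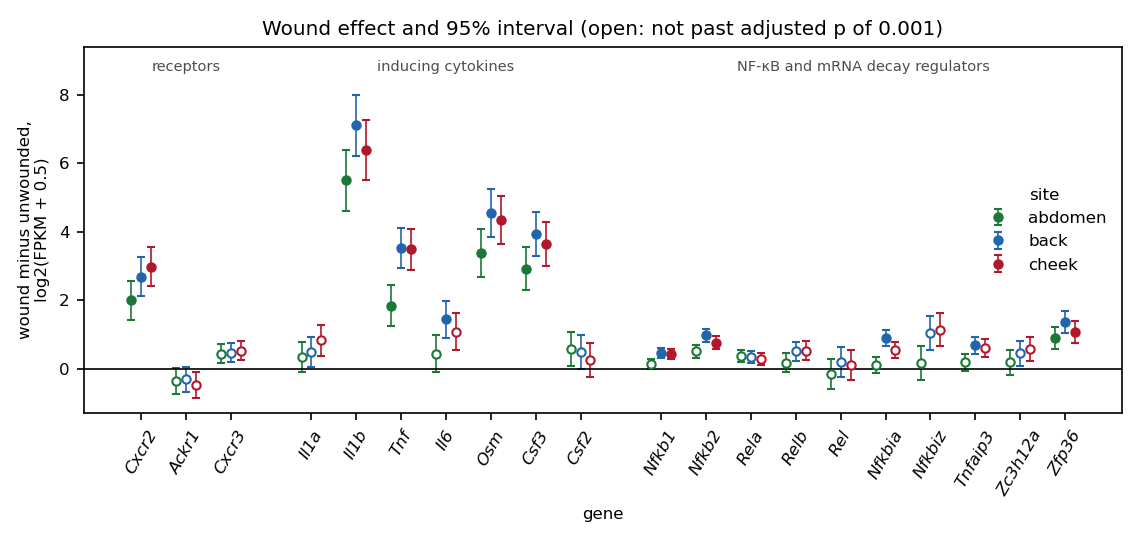
Difference between wound and unwounded skin, on the log2(FPKM + 0.5) scale, of 3 receptor and scavenger genes, 7 inducing cytokines and 10 regulators of NF-κB and mRNA decay (x axis) at each site (colour), with 95% intervals from limma; filled points passed an adjusted p of 0.001. Il1b, Osm, Csf3, Tnf, Cxcr2 and Zfp36 are filled at all 3 sites.

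Across the 12 wounds the values of Cxcl1, Cxcl2 and Cxcl3 followed each other (Pearson's r of log2(FPKM + 0.5) between 0.92 and 0.94), whereas Cxcl5 followed them with r between 0.69 and 0.81. Pf4 (r between 0.605 and 0.802) and Ppbp (0.629 to 0.731) followed Cxcl1, Cxcl2 and Cxcl3 about as closely as Cxcl5 did. Reads that fit both Cxcl2 and Cxcl3 enter that pair. The genes most like Cxcl2 over these wounds were Ccl3, Ccl4 and Tnf (r = 0.975, 0.965 and 0.964). Those most like Cxcl5 were Akr1b8, Il17ra and Pkm (0.966, 0.938 and 0.935), those most like Cxcl1 were Adam8, Srgn and Tpcn2 (0.946, 0.945 and 0.943), and those most like Cxcl3 were Cxcl2, Cxcl1 and Srgn (0.942, 0.923 and 0.92). Pf4 was most like Rcbtb2, Hmox1 and Rpl10 (0.909, 0.9 and 0.899), and Ppbp most like Prpf6, Ttc13 and Parpbp (0.942, 0.935 and 0.917). These are the 3 highest values among all genes tested in 12 libraries and are given as a description.

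Over all 24 libraries, which fall into 2 separate groups, wounds and unwounded skin, Cxcl2 was most like Clec4d, Cxcl3 and Clec4e (r = 0.996 for each) and Cxcl1 most like Srgn, Cxcl3 and Plaur (0.986, 0.985 and 0.984). Cxcl3 was most like Cxcl2, Clec4e and Acod1 (0.996, 0.994 and 0.994), and Cxcl5 most like Akr1b8, Trem3 and Nlrp3 (0.979, 0.978 and 0.977). Ppbp was most like Pvr, Ccnyl1 and Hrh2 (0.923, 0.903 and 0.892), and Pf4 most like Fes, Batf and Rhoc (0.949, 0.948 and 0.937). Akr1b8 headed the list of Cxcl5 both over the wounds and over all libraries.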

How the data were processed

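Per the labels and the study's methods, the authors' sequencing provider mapped paired reads to mouse mm10 (GRCm38) with HISAT2 and to transcripts with Bowtie2 (2.2.5) and estimated expression per gene and library with RSEM (1.2.12). The deposited FPKM values are rounded to 2 decimals, are not scaled between libraries and carry no counts, so counting error cannot be attached to them. Shared stretches of related genes are split by estimate. A second deposited table, from DESeq2, holds fold changes with their adjusted p-values for the authors' own comparisons and was not used. All 24 sample columns were used, and 0 were left over.

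Values were transformed as log2(FPKM + 0.5), and fold changes understate those of low genes. A gene entered a fit if it reached 0.5 FPKM in 4 or more of its libraries. Tests were made with limma 3.58.1 (statmod 1.5.0, R 4.3.3) with trend and robust moderation. Wound effects came from 24 libraries with a term for each mouse (threshold 0.001), and sites were compared within 12 wound or 12 unwounded libraries (threshold 0.05), with Benjamini-Hochberg adjustment over all genes tested. Exact tests enumerated all arrangements in Python 3.11.15 with numpy 2.4.6. The fits were also run on simulated data with normal spread. That run did not imitate members at or near 0 in unwounded skin, and no result here rests on it.

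The wound and unwounded library of a mouse are paired by design. Their deviations from the group means correlated, with mean r values of 0.322, 0.348 and 0.281 for abdomen, back and cheek (lowest -0.0299), against -0.108, -0.116 and -0.0958 for different mice of a site. The labels repeat mouse numbers 1 to 4 at every site; since the protocol states that each mouse was wounded at a single site, they were taken as 12 animals, and a block on the number across sites was run as an alternative.

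The members and gene lists were chosen with earlier results of these data known. Named genes are the 6 members, receptors, listed pathway genes called at every site plus up to 4 others with the largest mean effect, and the 3 genes most like each member. Marker genes were named as examples after their values were seen, as were ATTTA and TTATTTATT. Alternatives were other pseudocounts and filters, median-ratio scaling, quantile normalization, plain moderation, other blocks and sample sets, and each mouse left out. Sequences came from RefSeq promoters (5 of 6 members matched) and GENCODE transcripts of GRCm38; they are the reference, not CD-1. Protein sequences were not analysed here.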

Additional observations from a re-analysis of the deposited data

Results flagged for a closer look

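Among 36 groups of 4 libraries (6 genes, 3 sites, wounded or not), 6 held a library whose gap to the others exceeded Dixon's 95% critical value of 0.829 of the group's range; chance gives about 1 in 20 for values without ties. In 5 of the 6 the other 3 libraries held one same listed value, which makes the ratio of gap to range 1 for any gap, so the rule tests nothing there. Those were Cxcl1 at 0.47 FPKM in unwounded cheek mouse 4, against 0.27 FPKM in the other 3, and Cxcl2 at 0.06 FPKM in unwounded abdomen mouse 2 and back mouse 3, Cxcl3 at 0.32 FPKM in unwounded abdomen mouse 1 and Cxcl5 at 0.04 FPKM in unwounded cheek mouse 2, each with the others at 0. Values under about 0.1 FPKM cannot be told from 0. Ppbp was 0.97 FPKM in unwounded abdomen mouse 2, against 0.12 to 0.24 FPKM in the others, a ratio of 0.859.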

How the results depend on the processing

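Directions were kept in all fits of called effects. In abdomen wounds 4 members were called; 2 were called when the abdomen libraries were fitted alone, and 2 to 4 when each mouse was left out. The counts in back (5), cheek (6) and the mean of the sites (6) stayed within 1.5 times under all alternatives run. That limit still allowed losses in cheek: Ppbp and Pf4 were both lost without cheek mouse 2 or 3, and when the cheek libraries were fitted alone. For cheek against abdomen wounds, 1 member was called; 0 were called without a filter on low values and with median-ratio scaling, 2 with quantile normalization, 4 when all 24 libraries were fitted as 6 groups, and 0 to 4 with each mouse left out. For back against abdomen wounds the count of 0 became 1 with quantile normalization, 2 with 6 groups, and 0 to 1 with each mouse left out. The counts of members whose wound effects differed between sites (F test, or back against abdomen) went from 0 to between 0 and 1 with a mouse left out, the 1 being Cxcl5 without abdomen mouse 1. Calls over all genes, in either direction, moved as well when each mouse was left out. They ranged from 293 to 833 in abdomen (715 in the main fit) and from 508 to 1703 for cheek against abdomen wounds (1519). For back against abdomen wounds they ranged from 22 to 285 (178). For differing wound effects they ranged from 1 to 315 by the F test (3) and from 0 to 597 for back against abdomen (0). The causes were not tested.

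Without the pairing of both libraries of a mouse (no block), 4, 5, 6 and 6 members were called in abdomen, back, cheek and over the mean, as with it, and no other call changed. A block on the mouse number across sites joins different animals if each mouse had wounds at a single site. It called 3 members for cheek against abdomen wounds (Cxcl1, Cxcl2 and Cxcl3) and no longer Ppbp. Over all genes this block called 1127 of 14023, against 1519 in the main fit. FPKM hold no counts, so values under about 0.1 FPKM cannot be told from 0.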

Other observations

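Markers of other cells in the punches were tested with the same fit. Of 7 keratin genes, 4 rose in abdomen, 5 in back and 4 in cheek wounds. Krt16, a keratin of wound-edge epidermis, had the largest rise of the 7 at each site, by 6.15 in abdomen on the log2(FPKM + 0.5) scale, and by 7.59 in back and 7.14 in cheek (SE 0.41). Of 6 endothelial markers, 1, 2 and 2 rose by site and 4 over the mean of the sites. Selp, which encodes the P-selectin that holds neutrophils on venules, was not called at a single site and rose by 0.76 over the mean of the sites (SE 0.112; limma adjusted p = 7.3e-05). Of 6 fibroblast markers, 1 fell at a single site, in back, and 3 fell over the mean of the sites. Col1a2, a chain of type I collagen, was the one in back, where it fell by 1.26 (SE 0.212). The 6 skeletal muscle markers gave 0 calls by limma at each site, with median differences of -0.65, -2.23 and -1.72. By site, 0, 5 and 5 of them had an unadjusted p below 0.05, against 44.3%, 53.5% and 46.4% of all genes tested. The part of these cells in the chemokine values was not tested.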
